A study of Mus musculus with 20 samples.

Results

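The cytosolic ribosomal proteins were followed in ribosome footprints of mouse embryonic stem cells. They were taken as every gene of the count table named Rpl or Rps followed by a number, with an optional A, L or X, together with Rpsa and the stalk proteins Rplp0, Rplp1 and Rplp2. This gave 80 of 22416 genes, of which 49 encode proteins of the large subunit and 31 encode proteins of the small subunit. The rule used names alone and no measured value. It leaves out a few ribosomal proteins with other names, of which Fau, Rps3a1, Rpl22l1, Rpl36al and Rack1 are described apart.

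The cells carried either the wild-type initiation factor gene (eIF2α+/+, WT) or a homozygous knock-in (eIF2αA/A, KI). Phosphorylation of eIF2α slows initiation on most mRNAs, and in the knock-in the serine that is phosphorylated is replaced by alanine. Each genotype was kept for 6 days in leukaemia inhibitory factor together with the MEK inhibitor PD0325901 and the GSK3 inhibitor CHIR99021 (LIF/2i), or in the factor without the inhibitors (LIF). All 4 groups of genotype and medium shared a serum-free base with KnockOut serum replacement and 1000 U/mL of the factor, and all cells were washed with cycloheximide before lysis. Lysates were digested with micrococcal nuclease (MNase, 3 libraries per group, 12 in all) or with RNase I (2 libraries per group, 8 in all). The labels name no clone or parental line and tie no replicate to a culture of its own, so p-values measure the spread between the samples as labelled. RNA-seq was not used here, so a footprint level combines mRNA level and translation.

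The large subunit joins amino acids and holds the exit tunnel for the new chain, while the small subunit reads the mRNA. Ribosomal proteins are needed in equal numbers, with the exception of the stalk proteins Rplp1 and Rplp2, and are among the most heavily translated mRNAs of growing cells. Most of their mRNAs begin with a run of pyrimidines, the terminal oligopyrimidine (TOP) tract, through which the kinase mTORC1 and the protein Larp1 control their translation together. Short open reading frames and many processed pseudogenes make them hard to count from short footprints.

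The start of the mRNA is shown for members on which the results below turn, to set genes with and without an annotated TOP tract side by side. RefSeq promoter entries (GRCm38.p6) were found for 60 of the 80 members. A run of at least 5 pyrimidines (C or T, on the strand of the gene) that covered the annotated first base was present in 18 of the 60 members (30%), against 9.95% of 27025 RefSeq entries. In 12 members (20%) the first transcribed base was C and the first 5 transcribed bases were all pyrimidines, against 2.49% of all entries. The run that covered the first base was found in 10 of 37 large subunit genes and in 8 of 23 small subunit genes. It is a description of the annotated start, and no run says only that these letters are not at that base. Each sequence holds 10 bases before and 20 bases from the annotated start on, and capitals mark the run:
Rpl28 (chr7:4792955-4792984, plus strand): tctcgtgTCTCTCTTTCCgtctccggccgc
Rpl27a (chr7:109519185-109519214, plus strand): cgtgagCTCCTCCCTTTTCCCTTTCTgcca
Rpl35 (chr2:39005112-39005141, minus strand): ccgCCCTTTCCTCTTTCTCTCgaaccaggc
Rps18 (chr17:33955646-33955675, minus strand): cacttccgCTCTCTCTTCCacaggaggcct
Rps10 (chr17:27635225-27635254, minus strand): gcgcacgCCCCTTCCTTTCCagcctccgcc
Rplp0 (chr5:115559457-115559486, plus strand): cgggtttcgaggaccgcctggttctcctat
Rpl37a (chr1:72711250-72711279, plus strand): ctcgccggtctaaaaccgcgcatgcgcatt
The first 5 carry a run and the last 2 do not at the annotated base. With MNase the median log2 difference of KI from WT in LIF was -0.15 over 18 genes with a run and -0.34 over 42 without. With RNase I it was 0.44 over 18 with a run and 0.31 over 39 without. For RNase I against MNase, 4 genes with a run were higher and 5 lower of 18 (median 0.0082), and 19 without a run were higher and 9 lower of 41 (median 0.44). The shares of all genes called for RNase I against MNase are given with that comparison below. None of these differences between the 2 sets was tested.

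The libraries held 1965050 to 22916734 counts, and 14046 to 16036 genes were detected in each. Depth and genotype could not be told apart with MNase, where WT libraries held 2127850 to 5461210 counts and KI libraries 6560173 to 8894080. With RNase I in LIF the order was the other way, 4011036 to 4437767 in WT and 1965050 to 2285755 in KI. All 8 stem cell markers examined, Pou5f1, Sox2 and Nanog among them, were detected in every library. For KI against WT with MNase, edgeR called 1 of these higher and 1 lower in LIF/2i, and 0 higher and 3 lower in LIF. From LIF/2i to LIF it called 0 higher and 3 lower in WT, and 0 higher and 6 lower in KI (median log2 -0.72). Of 4 tested neuroectoderm markers, 1 was higher and 1 lower in WT after this change, and 2 higher and 0 lower in KI. The shares of all genes called are given with these comparisons below. Of 8 endoderm markers, whose summed level was 66.0 to 67.6 CPM in WT in LIF/2i with MNase, all were detected in WT in LIF, at 189 to 272 CPM, against 59.5 to 69.0 CPM in KI in LIF. The 8 trophoblast markers summed to 201 to 396 CPM in WT in LIF and to 76.1 to 102 CPM in KI in LIF. None of either list was at 0 in all libraries of an MNase group. The part of these cells in the results in LIF was not tested. Replicate 1 of KI with MNase stood apart over all genes: its chi-square per degree of freedom against replicates 2 and 3 was 24.8 to 29.4 in the 2 media, while replicates 2 and 3 gave 3.12 and 6.24 with each other and WT pairs 2.78 to 11.3. Counts of calls are therefore also given without it.

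In LIF the members' share of all counts separated the genotypes, in an order that differed between the nucleases. With MNase the members took 1.23, 1.29 and 1.36% of all counts in the WT libraries in LIF, and 0.994, 1.12 and 1.14% in the KI libraries in LIF. The 2 groups did not overlap, and KI was lower. With RNase I the genotypes stood in the opposite order, with 1.00 and 1.03% in WT and 1.18 and 1.42% in KI, again without overlap. Under both nucleases the genotype with the deeper libraries in LIF had the lower share, so depth and genotype could not be told apart here. In LIF/2i the genotypes overlapped under both nucleases, at 1.09 to 1.23% (WT) and 1.09 to 1.10% (KI) with MNase, and at 0.832 to 0.963% and 0.886 to 1.33% with RNase I. No test was made on these sums, and in such bulk samples fewer cells of a type and fewer footprints per cell cannot be told apart.

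The ratio of large to small subunit counts separated the genotypes only with MNase in LIF/2i. With MNase in LIF/2i the counts on large subunit genes were 1.54 to 1.62 times those on small subunit genes in WT and 1.25 to 1.31 times in KI, without overlap. In LIF the ratios were 1.40 to 1.60 in WT and 1.45 to 1.51 in KI, and the groups overlapped. With RNase I the ratio lay between 1.15 and 1.29 in all 8 libraries, and WT and KI overlapped in both media. The sums rest on few genes: Rpl8 alone held 20.2 to 27.8% of the members' counts with MNase and 17.1 to 21.7% with RNase I. With MNase in LIF/2i Rpl8 averaged 3033 ± 243 CPM in the WT libraries, against 2389 ± 11.4 CPM for KI (SD, n = 3).

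**Figure D1:**
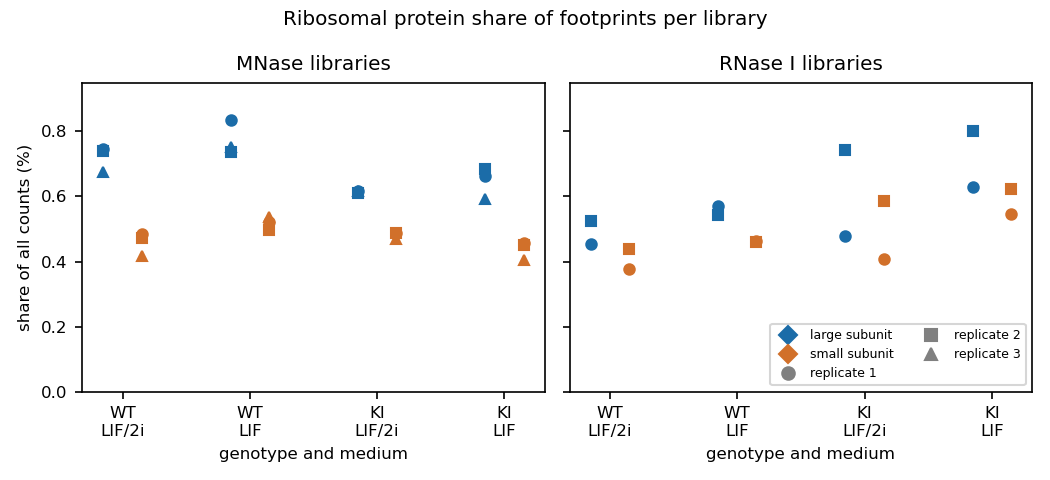
Share of all counts in percent (vertical axis) that fell on large and small subunit genes in each of the 20 libraries, by genotype and medium (horizontal axis), for MNase and for RNase I. In LIF the KI libraries lie below the WT libraries with MNase and above them with RNase I.

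The table held 7 pseudogenes of the family as genes of their own. RefSeq names 318 pseudogenes after 62 of the 80 members, with up to 24 for 1 gene and none for 18. How footprints that match several copies were assigned is not known here. Members with near-identical copies are therefore uncertain. With MNase 20 members had a mean under 10 CPM (counts scaled to a library total that TMM adjusts, a level per library), 18 of them with at least 1 named pseudogene and a median of 4. The 29 members from 10 to 100 CPM had a median of 2, and the 31 members at 100 CPM or more had a median of 1. Rpl29 was too low to test under either nuclease, with 4 counts in 12 MNase libraries.

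With MNase in LIF/2i, single ribosomal protein genes differed between KI and WT in both directions. In KI 10 of 79 tested members were higher and 13 were lower (edgeR, adjusted p under 0.05), which is 29.1% of the members against 25.4% of all 12806 genes tested (13.9% higher and 11.5% lower). The large subunit had 7 higher and 10 lower of 48, and the small subunit 3 and 3 of 31. The median log2 difference was 0.11 over the members, -0.00033 for the large subunit, 0.16 for the small subunit and 0.0063 over all genes. Scaled by library totals in place of TMM, which moved the median of all genes to -0.10, the split was 8 higher and 18 lower. In this comparison the direction of the calls differed between bands of level. The bands were set from the mean of the same MNase libraries, which a fall in KI lowers, and no share of all genes per band is given. Of 19 tested members under 10 CPM 7 were lower and 0 higher, with a median of -1.21, while of 60 at 10 CPM or more 10 were higher and 6 lower, with a median of 0.22. For KI against WT in LIF the same bands gave 2 lower and 0 higher of 19, and 9 lower and 2 higher of 60. With RNase I in LIF/2i the lower band had a median of 0.19 over 15 tested members. All 3 KI libraries lay on one side of all WT libraries in 42 of the 79 members (39.8% of all genes). Without replicate 2 of KI in LIF/2i the number of calls fell to 15, and without KI number 1 in both media it was 31 of 76 (38.9% of all genes).

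Among the proteins of the stalk, which recruits translation factors, the changes in LIF/2i ran in opposite directions. Rplp1 stood at 153, 168 and 125 CPM in the WT libraries, while those of KI held 82.0, 72.7 and 68.9 CPM. All 3 KI libraries were below all WT libraries, and the log2 difference was -1.0 (SE 0.17, adjusted p by edgeR 0.00197). Rplp0, on which the Rplp1 and Rplp2 dimers sit, rose from 34.7, 39.0 and 28.0 CPM in WT to 63.4, 60.4 and 50.1 CPM in KI (log2 0.77, SE 0.18, adjusted p = 0.00742). Rplp2 did not pass the test (-0.59, SE 0.28, adjusted p = 0.129), and its groups overlapped. Rpl12, at the base of the stalk, fell by 3.22 on the log2 scale in KI (SE 0.71, adjusted p = 0.00647), but this rested on 5, 7 and 8 counts in WT and 3, 1 and 0 in KI.

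Other large subunit proteins fell in KI in LIF/2i. Rpl35, at the mouth of the exit tunnel, went from 9.93, 12.6 and 7.13 CPM in WT to 2.75, 2.69 and 3.25 CPM in KI, with no overlap (-1.76, SE 0.33, adjusted p = 0.00314). Rpl5, which binds the 5S rRNA together with Rpl11, fell by 1.90 on the log2 scale (SE 0.44, adjusted p = 0.00834), whereas Rpl11 gave 0.33 (SE 0.22, adjusted p = 0.276). Rpl10, one of the last proteins to join the large subunit, fell by 2.17 (SE 0.42, adjusted p = 0.00335), on 10 to 13 counts per WT library and 4 to 6 per KI library. Rpl9 fell by 2.15 (SE 0.65, adjusted p = 0.0286), on 5 to 13 counts in WT and 0 to 6 in KI. That call was lost without replicate 2 of WT in LIF/2i (adjusted p = 0.125) and without replicate 2 of KI in LIF/2i (0.061). Of the other exit tunnel proteins, Rpl26 rose (1.12, SE 0.26, adjusted p = 0.00862), while Rpl23a gave 0.40, Rpl39 0.23 and Rpl17 -1.78, none of which passed.

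Of all members in LIF/2i, the small subunit protein Rps27a, which is made as a fusion with ubiquitin, had the smallest adjusted p. It rose from 83.0, 58.4 and 65.2 CPM in WT to 117, 158 and 143 CPM in KI, without overlap (1.02, SE 0.17, adjusted p = 0.00161). Rpl37a, a zinc-binding protein of the large subunit, was another rise, from 17.4, 18.2 and 17.5 to 39.9, 33.3 and 29.4 CPM (0.95, SE 0.17, adjusted p = 0.00266). Rps13, a protein of the contact between the subunits, fell from 7.45, 6.16 and 6.39 to 1.37, 1.02 and 1.83 CPM (-2.22, SE 0.42, adjusted p = 0.00308). Rps6, the classic substrate of S6 kinase, gave 0.42 (SE 0.15, adjusted p = 0.0614), and Rpsa, Rps3 and Rps15 gave 0.03, 0.23 and -0.02, all short of the threshold.

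In LIF the members that differed between the genotypes with MNase were mostly lower in KI. There 2 were higher and 11 lower of 79, or 16.5% of the members against 13.6% of all genes (7.49% higher and 6.08% lower). Large subunit calls were 2 higher and 6 lower of 48, and small subunit calls 0 higher and 5 lower of 31. The median was -0.26 over the members, -0.15 for the large subunit, -0.37 for the small subunit and -0.0071 over all genes, and 18 of the 79 values were above 0. Thinned to the depth of the smallest library, 13 were lower and 2 higher. The groups were apart in 27 of the 79 members (35.5% of all genes). Without replicate 2 of KI in LIF 8 were called, and without KI number 1 in both media 23 of 76 were called (26.9% of all genes).

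Both Rplp0 and Rplp1 were lower in KI in LIF. Rplp0 fell from 48.8, 55.6 and 62.6 CPM in WT to 25.7, 23.6 and 19.8 CPM in KI (-1.28, SE 0.18, adjusted p by edgeR 0.00141). For Rplp1 the WT libraries held 147, 146 and 199 CPM and the KI libraries 78.5, 86.6 and 61.5 CPM (-1.12, SE 0.17, adjusted p = 0.00216). Neither gene's groups overlapped. Rplp2 and Rpl12 gave 0.34 and 0.04, with adjusted p of 0.451 and 0.970.

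Rpl27a carries one of the longest start runs shown above. It fell in LIF from 163, 175 and 179 CPM in WT to 101, 101 and 94.4 CPM in KI, with the groups apart (-0.80, SE 0.11, adjusted p = 0.00172). Rpl3, which lies close to the peptidyl transferase centre, fell by 1.25 (SE 0.26, adjusted p = 0.00776), from 13.2, 13.8 and 17.6 to 5.54, 7.67 and 5.70 CPM. Rpl7 fell by 2.07 (SE 0.36, adjusted p = 0.00365), from 10.5, 8.14 and 12.7 to 2.15, 3.33 and 2.01 CPM. These 3 genes were each lower in every KI library than in any WT library in LIF.

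Small subunit genes lower in KI in LIF included 2 proteins of the head. Rps18 fell from 14.1, 5.97 and 7.91 to 2.77, 2.46 and 1.90 CPM (-1.93, SE 0.39, adjusted p = 0.00746). Rps19, whose human counterpart is mutated in Diamond-Blackfan anaemia, fell from 22.4, 39.9 and 31.5 to 14.2, 12.9 and 12.8 CPM (-1.24, SE 0.21, adjusted p = 0.00298). Rps28, Rps4x and Rps10 made up the 5 calls, at -0.80, -0.53 and -0.73. Rps10, whose ubiquitination marks collided ribosomes, had nearly the same value in LIF/2i, -0.72 (SE 0.20, adjusted p = 0.0189). The values of Rpsa and Rps3 in LIF were -0.51 and -0.38, with adjusted p of 0.0520 and 0.0592.

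Removing the inhibitors raised 9 members in WT and lowered none with MNase. This was 11.4% of 79 members against 9.97% of all genes for rises, while 11.0% of all genes fell (21.0% in either direction). All but Rps28 were large subunit genes, 8 of 48 against 1 of 31. The member median was 0.13, against 0.0070 over all genes. The groups were apart in 20 of the 79 members (42.5% of all genes). Fibroblast and feeder markers also moved with the medium. Of 6 tested 4 were higher and 1 lower in LIF in WT, and 3 higher and 1 lower in KI. The lower one was Fn1, which many cell types make (-1.58 in WT and -1.60 in KI). The summed level of all 8 markers fell, from 3459 to 4343 CPM in WT in LIF/2i to 1518 to 1876 CPM in WT in LIF and from 3852 to 4576 to 1370 to 1680 CPM in KI, while more of the tested markers rose than fell. The part of these cells in the results was not tested. Rpl28 rose from 31.2, 28.2 and 28.5 to 48.8, 51.8 and 64.0 CPM without overlap (0.91, SE 0.15, adjusted p = 0.00130). Rpl37a moved from 17.4, 18.2 and 17.5 to 31.9, 30.1 and 34.3 CPM (0.86, SE 0.18, adjusted p = 0.00453). Both rises lay outside the spread of the replicates. The other named rises were Rplp0 (0.72, SE 0.18), Rpl27a (0.54, SE 0.12), Rpl7a (1.01, SE 0.27) and Rpl38 (0.67, SE 0.20), a gene required for patterning of the mouse axial skeleton.

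Several calls in WT rested on single libraries. Leaving out replicate 1 or 2 of WT in LIF/2i, or replicate 3 of WT in LIF, left 5 calls. Rpl7a lost its call in each of these 3 cases, with adjusted p from 0.0637 to 0.128. Rpl38 lost its call without replicate 1 or 3 of WT in LIF/2i and without replicate 1 or 3 of WT in LIF, with adjusted p from 0.0924 to 0.153. Rplp0 lost its call without replicate 3 of WT in LIF (adjusted p = 0.0656). Without KI number 1 in both media, which changes this comparison through the shared spread, 14 of 76 members were called (32.3% of all genes).

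In KI the same change of medium lowered 18 members and raised 7 with MNase. That is 31.6% of the members against 18.8% of all genes (10.4% lower and 8.40% higher). Small subunit genes fell most often, with 10 lower and 1 higher of 31 (median -0.26), against 8 lower and 6 higher of 48 in the large subunit (median -0.07). Over all genes the median was -0.0026. The groups were apart in 39 of the 79 members (34.9% of all genes). Library totals in place of TMM, which moved that median to 0.10, gave 13 lower and 9 higher. Thinned to the smallest library 14 were called, and leaving out replicate 2 of KI in LIF/2i or replicate 3 of KI in LIF left 16 and 15. Without KI number 1 in both media 28 of 76 were called (25.0% of all genes).

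Rplp0 gave the clearest fall, from 63.4, 60.4 and 50.1 CPM with the inhibitors to 25.7, 23.6 and 19.8 CPM without (-1.33, SE 0.17, adjusted p = 2.42e-04). Rpl7 fell from 6.72, 13.3 and 9.88 to 2.15, 3.33 and 2.01 CPM (-2.0, SE 0.35, adjusted p = 0.00167). The groups of both genes were apart. Rpl10l, a paralogue of Rpl10 best known from testis, fell from 47.0, 70.7 and 54.2 to 24.5, 18.4 and 18 CPM (-1.50, SE 0.31, adjusted p = 0.00498), while Rpl10 itself rose by 2.25 (SE 0.39, adjusted p = 0.00168) from 4 to 6 counts per library to 20 to 31. Rpl35 rose from 2.75, 2.69 and 3.25 to 6.00, 7.96 and 12.1 CPM (1.59, SE 0.32, adjusted p = 0.00441), and Rpl12 rose by 3.26 (SE 0.66, adjusted p = 0.00409) from 3, 1 and 0 counts to 13, 12 and 20. At the depth of the smallest library the call of Rpl35 was lost (1.12, adjusted p = 0.0828). Rpl10, Rpl12 and Rpl35 are genes that were lower in KI than in WT in LIF/2i, and their 2 comparisons share the KI libraries in LIF/2i.

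On the small subunit, Rps18 fell in KI after removal of the inhibitors (-1.59, SE 0.38, adjusted p = 0.0104). Its call was lost without replicate 2 of KI in LIF/2i (adjusted p = 0.0529), without replicate 3 of KI in LIF (0.0531) and at the depth of the smallest library (0.121). Of the proteins of the mRNA channel, Rps3 fell from 736, 878 and 765 to 528, 572 and 506 CPM (-0.57, SE 0.13, adjusted p = 0.00713) and Rps2 fell by 1.47 (SE 0.35, adjusted p = 0.0104). Rps15 gave -0.06 (adjusted p = 0.795).

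**Figure D2:**
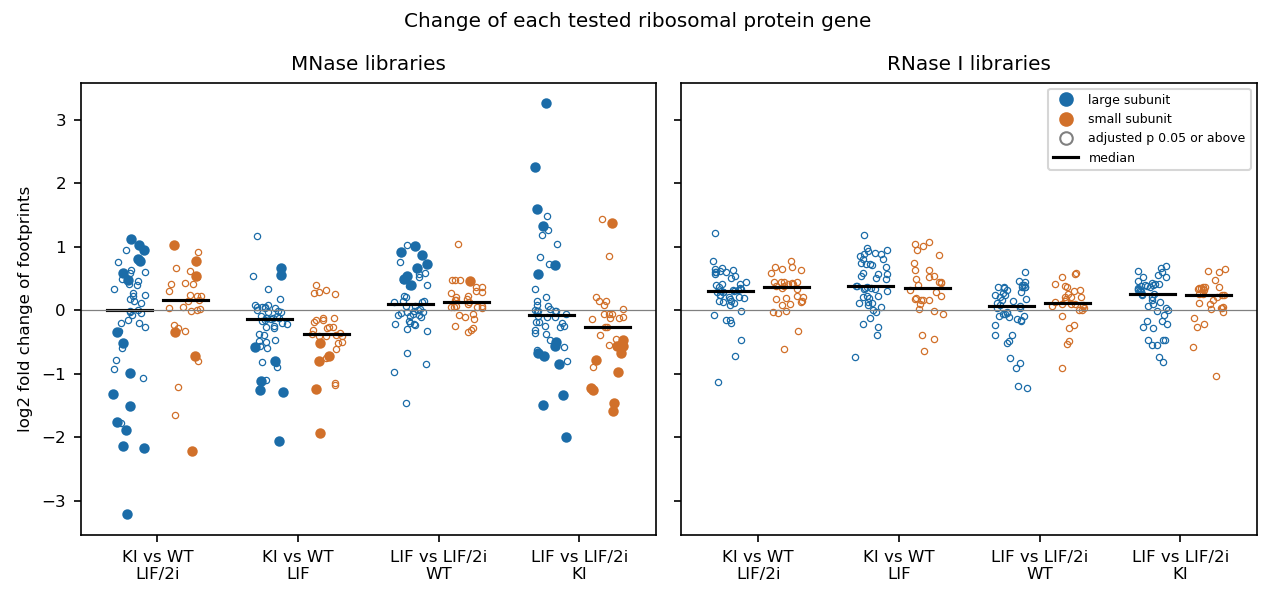
Log2 fold change (vertical axis) of every tested ribosomal protein gene in 4 comparisons (horizontal axis), for MNase and for RNase I; each point is 1 gene, filled where the edgeR adjusted p was under 0.05, and bars are medians. Filled points lie on both sides of 0 with MNase, and there is none with RNase I.

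The response to the medium differed between the genotypes for 3 members with MNase. The interaction, the KI change minus the WT change, passed for Rplp0, Rpl37a and Rpl7, all large subunit genes and all below 0. This was 3 of 79 members (3.80%), against 0.336% of all genes, and the member median was -0.26 against -0.02 over all genes. Rplp0 gave -2.06 (SE 0.25, adjusted p = 0.00756). Rpl37a followed at -1.53 (SE 0.24, adjusted p = 0.0152) and Rpl7 at -3.02 (SE 0.50, adjusted p = 0.0190). The fitted change from LIF/2i to LIF was above 0 in WT and below 0 in KI for each of the 3. In Rpl37a the KI libraries fell to 23.1, 23.0 and 18.4 CPM in LIF. For Rpl7 the WT libraries held 7.09, 4.70 and 3.93 CPM in LIF/2i, and its WT difference of 1.02 (SE 0.36) did not pass (adjusted p = 0.0579). The RNase I libraries did not show this pattern. Their group means of Rpl37a went from 52.3 to 63.3 CPM in WT and from 78.1 to 125 CPM in KI after removal of the inhibitors. Those of Rplp0 went from 72.2 to 98.6 CPM in WT and from 98.7 to 107 CPM in KI. Rpl7 was low there, from 4.64 to 3.28 CPM in WT and from 4.68 to 4.13 CPM in KI.

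The Rplp0 interaction passed without any single MNase library. That of Rpl7 failed without replicate 2 or 3 of WT in LIF/2i, replicate 1 or 3 of WT in LIF, replicate 2 of KI in LIF/2i or replicate 3 of KI in LIF, with adjusted p from 0.0553 to 0.0808, and at the depth of the smallest library (0.0663). That of Rpl37a failed without replicate 1 or 3 of WT in LIF/2i, replicate 1 or 3 of WT in LIF, or replicate 2 of KI in LIF/2i, with adjusted p from 0.0508 to 0.0808. DESeq2 called 6 members for the interaction, and without KI number 1 in both media edgeR called 10 of 76 (3.81% of all genes).

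**Figure D3:**
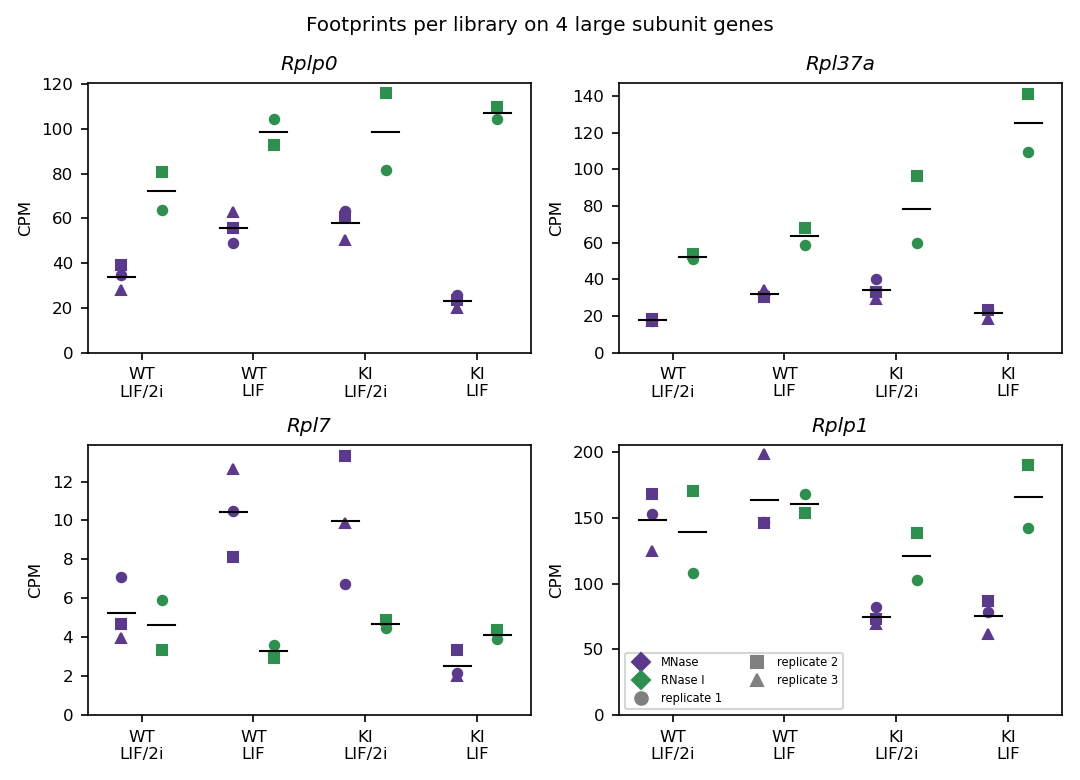
CPM per library (vertical axis) of Rplp0, Rpl37a, Rpl7 and Rplp1 by genotype and medium (horizontal axis), with MNase in purple and RNase I in green; symbols are replicates and bars are group means. With MNase the KI libraries of Rplp0 drop from LIF/2i to LIF, which those with RNase I do not.

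With RNase I no member passed in any of the same comparisons. For KI against WT in LIF/2i edgeR called 0 of 75 tested members against 0.215% of 12095 genes, and in LIF 0 against 0.116%. From LIF/2i to LIF it called 0 members against 13.5% of genes in WT (7.06% higher and 6.42% lower) and 0 against 3.42% in KI (1.37% higher and 2.05% lower), and for the interaction 0 of both members and genes. At an unadjusted p under 0.05 the members numbered 9, 16, 3, 2 and 0 in this order. The share of all genes at that p is not given here, so these counts cannot be set against it. DESeq2 called 0, 2, 0, 0 and 0, the 2 being Rpl32 and Rpl37a in LIF. With 2 libraries per group the median SE of a member was 0.30 for KI against WT, compared with 0.20 in the MNase libraries. Counts were also simulated for KI against WT in LIF/2i, with genes changed by a known amount. At a log2 change of 1, 19 of 67 such genes were recovered with RNase I and 50 of 67 with MNase. At a change of 2 these were 59 and 65 of 66. Many changes of 1 on the log2 scale could thus be missed with RNase I. In the order of the first 4 comparisons the groups were apart in 22, 49, 33 and 19 of 75 members, against 43.5%, 46.5%, 64.8% and 43.3% of all genes.

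The values themselves leaned upward in KI with RNase I. In LIF/2i 62 of 75 members were above 0, with a median of 0.31 (0.013 over all genes), and in LIF 63 of 75, with a median of 0.37 (-0.02 over all genes). Both subunits shared this, with medians of 0.30 and 0.36 for large and small subunit genes in LIF/2i and of 0.37 and 0.35 in LIF. Thinned to the smallest library the medians were 0.32 and 0.44. The median in LIF/2i depended on single libraries: over all removals of 1 library it ran from -0.0027 to 0.53, and in LIF from 0.25 to 0.57.

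With RNase I in LIF the WT libraries held 58.8 and 67.9 CPM of Rpl37a and the KI libraries 109 and 141 CPM (0.98, SE 0.25, adjusted p by edgeR 0.205). Rps15, a protein of the small subunit head near the decoding site, had 56.1 and 71.6 CPM against 103 and 130 CPM (0.87, SE 0.22, adjusted p = 0.208). The 4 KI values of these genes lay above the WT values, and neither gene passed. Rplp0 had 104 and 92.7 CPM in WT in LIF against 104 and 110 CPM in KI (0.12, SE 0.21). For Rplp1 the values were 168 and 154 CPM against 142 and 190 CPM (0.05, SE 0.26).

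Most members differed between the RNase I and the MNase libraries. These are separate sets of libraries, so the digestion and other differences between the sets, depth among them, could not be told apart. In replicates 1 and 2 of all groups, 16 libraries, 28 of 77 members were higher and 21 lower with RNase I than with MNase. That is 63.6% of the members against 30.1% of 12732 genes (14.8% higher and 15.2% lower). The large subunit split evenly, with a median of -0.16 and with 15 of 46 higher and 14 lower, while the small subunit, with a median of 0.46, had 13 genes higher and 7 lower of 31. Over all genes the median was -1.26e-05. In 18 of the 77 members all 8 RNase I libraries lay on one side of all 8 MNase libraries, against 4.47% of all genes. With the replicate number as a block 29 were higher and 26 lower, against 54.3% of all genes.

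Rpl19, a large subunit protein that reaches across to the small subunit, showed the largest gain with RNase I. Its MNase libraries ran from 4.93 to 11.6 CPM with a median of 8.33, and its RNase I libraries from 44.3 to 101 CPM with a median of 78.6, a log2 difference of 3.16 (SE 0.21, adjusted p = 1.74e-06). Rpl9 (2.91, SE 0.41), Rpl3 (2.14, SE 0.17), Rpl21 (2.07, SE 0.29) and Rpl38 (1.91, SE 0.15) followed. Of these 5 genes only Rpl21 overlapped between the nucleases, and Rpl9 and Rpl21 had MNase medians of 1.25 and 0.985 CPM. Rps19, Rps23, at the decoding site, and Rps16 led the small subunit at 1.77, 1.61 and 1.54, and the interaction genes Rplp0 and Rpl37a were higher with RNase I by 1.21 and 1.57.

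The members lowest with RNase I were Rpl7a (-1.44, SE 0.16), Rpl27 (-1.38, SE 0.098), Rps15a (-1.18, SE 0.10), Rpl41 (-1.14, SE 0.31), which encodes a very short basic peptide, and Rps12 (-1.14, SE 0.14). Rpl27 ran from 49.6 to 106 CPM with MNase and from 17.7 to 35.7 CPM with RNase I. Rps6 gave -1.13, past the threshold, while Rps3 gave 0.16 (adjusted p = 0.216). Stalk proteins divided again, with Rplp0 (1.21) and Rplp1 (0.43) higher and Rplp2 (-0.79) lower with RNase I. The call of Rpl41 was lost without replicate 2 of WT in LIF with MNase (adjusted p = 0.0532).

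**Figure D4:**
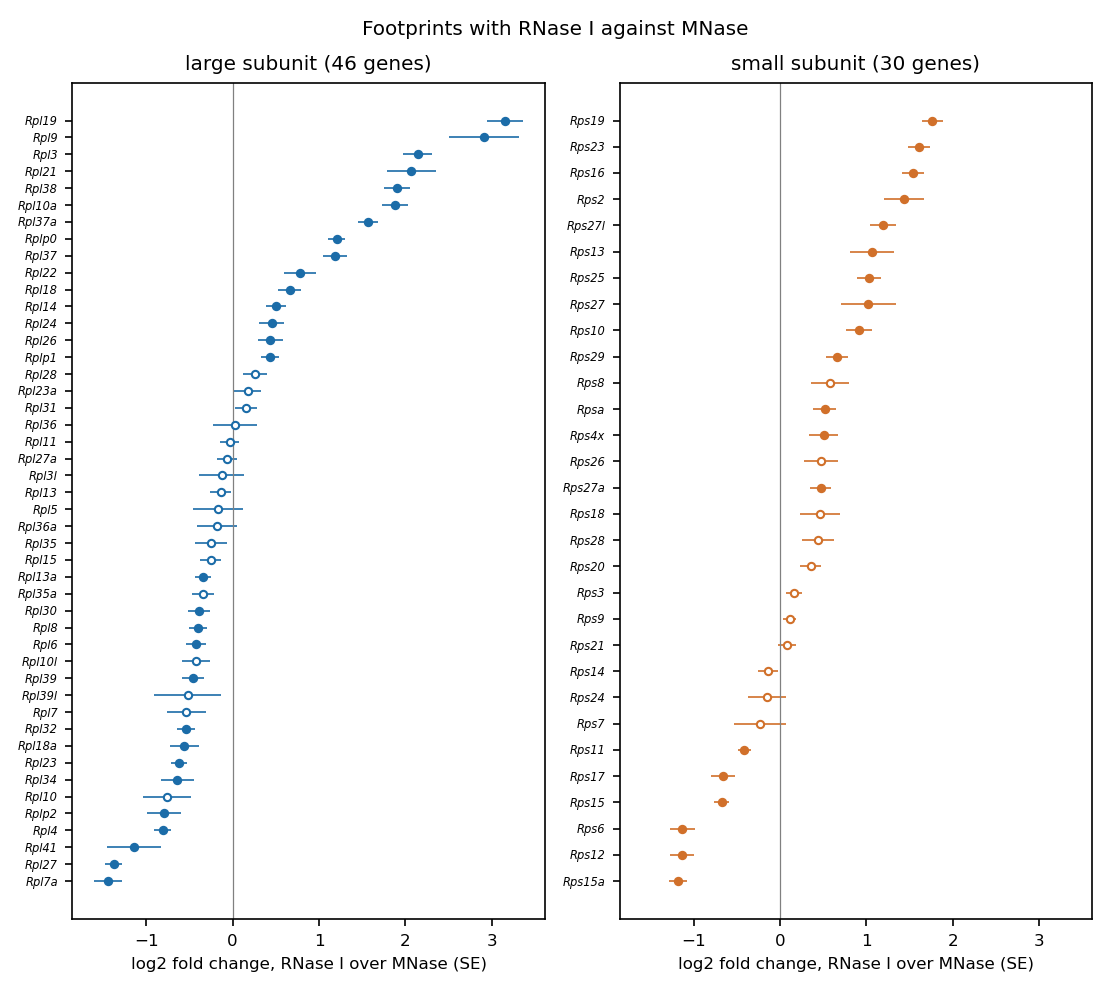
Log2 fold change of RNase I over MNase (horizontal axis, with the SE of the fit) for the 46 large and 30 of the 31 small subunit genes tested (vertical axis), in replicates 1 and 2 of all groups; filled points had an edgeR adjusted p under 0.05. Values run from -1.44 (Rpl7a) to 3.16 (Rpl19).

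For the members, the difference between genotypes under one nuclease did not track that under the other. Over 77 members the Spearman correlation of the MNase and RNase I log2 differences in replicates 1 and 2 was -0.06 for KI against WT in LIF/2i and -0.03 in LIF, against 0.53 and 0.64 over 12732 genes. From LIF/2i to LIF it was 0.20 in WT and -0.02 in KI, against 0.85 and 0.68. Over the 60 members at 10 CPM or more the 4 values were 0.01, 0.08, 0.25 and 0.16. Members had the same sign under both nucleases in 40, 29, 41 and 32 of 77 cases. These are descriptions across genes, which are not independent, and the 2 sets of libraries share no library but may share cultures.

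The difference between the nucleases was tested in the same 16 libraries. Without the replicate number in the fit, edgeR called 0 of 77 members for each of the 4 contrasts, as it called 0 of all genes. At an unadjusted p under 0.05 there were 23, 25, 1 and 20 members, again without a share of all genes to set beside them. DESeq2 called 1, 0, 0 and 1, Rpl13a for KI against WT in LIF/2i and Rplp0 for the change of medium in KI. Same-numbered libraries of a group deviated together under the 2 nucleases, with correlations from 0.49 to 0.71 over all genes, so the numbers pair them and the fit was repeated with the pair as a block. In the blocked fit 22 members differed for KI against WT in LIF/2i (18 higher and 4 lower with RNase I, against 6.41% and 9.30% of all genes, 15.7% in all). In LIF 13 differed (12 higher and 1 lower, against 0.338% and 0.644% of all genes). For the change of medium 0 members differed in WT (0.0236% of all genes) and 10 in KI (8 higher and 2 lower, against 1.34%). Without KI number 1 under both nucleases, an alternative chosen after seeing the data, the 4 counts were 42, 35, 6 and 19 of 78 members, against 25.0%, 4.84%, 0.761% and 5.49% of all genes. Each KI group then held 1 library per nuclease and was assumed to vary like WT.

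In LIF the blocked differences covered both subunits, 9 of 46 large and 4 of 31 small subunit genes. The largest were Rps2 (2.62, SE 0.57), Rps18 (2.40, SE 0.48), Rps26 (1.59, SE 0.31), Rpl37a (1.41, SE 0.28) and Rpl3 (1.38, SE 0.29), all with a more positive KI difference under RNase I. With RNase I the WT libraries in LIF held 8.56 and 5.16 CPM of Rps18 and the KI libraries 9.12 and 10.2 CPM. Rplp0 differed by 1.23 (SE 0.21, adjusted p = 0.00510) and Rplp1 by 0.88 (SE 0.20, adjusted p = 0.0416). In both stalk genes the fitted KI difference in LIF was below 0 with MNase and close to 0 with RNase I.

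Rpl27 was the single member that went the other way in LIF, at -1.24 (SE 0.23, adjusted p = 0.00756). With MNase in LIF its WT libraries held 50.2, 51.3 and 62.6 CPM and its KI libraries 100.3, 100.5 and 61.9 CPM, and the groups overlapped. With RNase I they held 30.2 and 35.7 CPM against 25.2 and 29.5 CPM. The same held in LIF/2i (-1.49, SE 0.19, adjusted p = 4.74e-05), with 69.5, 50.5 and 50.6 CPM against 109, 98.6 and 90.3 CPM with MNase and 31.9 and 35.2 CPM against 22.7 and 17.7 CPM with RNase I. KI thus lay above WT with MNase in LIF/2i, and below it with RNase I.

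In LIF/2i the largest blocked differences were Rpl9 (3.37, SE 0.65), Rps13 (3.18, SE 0.53), Rpl36 (2.88, SE 0.53), Rps27 (2.44, SE 0.70) and Rps7 (2.31, SE 0.77). All 5 stayed under 10 CPM in every MNase library. With RNase I Rps13 had 5.47 and 8.43 CPM in WT against 8.35 and 13.7 CPM in KI, unlike the fall with MNase given above. Besides Rpl27, the genes that went the other way were Rpl7a (-1.12), Rps27l (-0.79) and Rps27a (-0.54). In both media 5 members were called, Rpl13a, Rpl27, Rplp1, Rps15 and Rps26, each in the same direction, which is 22.7% of those called in LIF/2i and 38.5% of those called in LIF. For the change of medium in KI the largest were Rplp0 (1.45, SE 0.20, adjusted p = 3.62e-04), Rpl37a (1.37), Rpl18 (1.16), Rpl35a (1.02) and Rps15a (0.91), with Rps13 (-2.60) and Rplp2 (-1.41) on the other side.

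**Figure D5:**
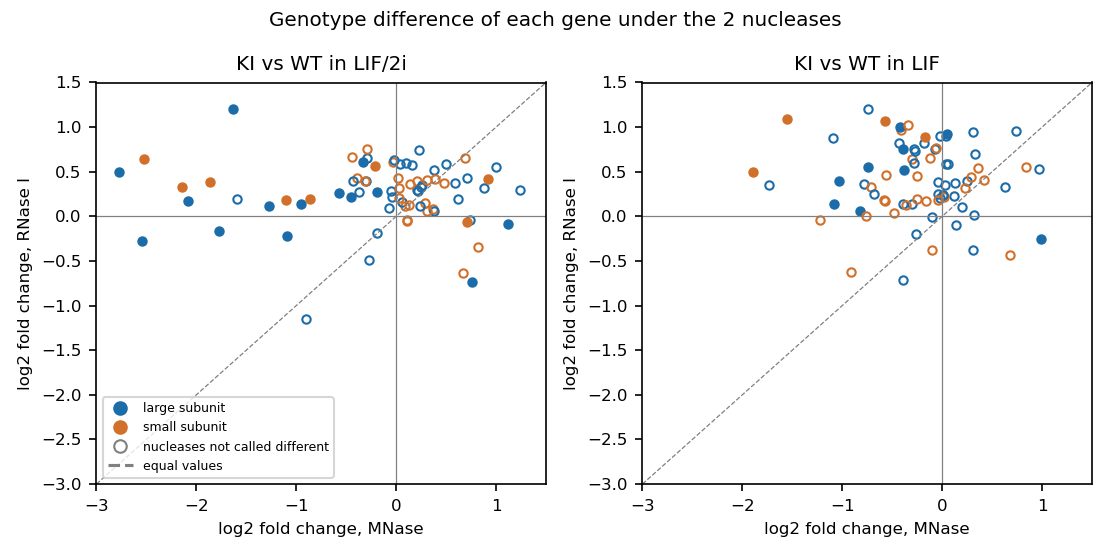
Log2 fold change of KI over WT with MNase (horizontal axis) and with RNase I (vertical axis) for each of 77 genes, in LIF/2i and in LIF, in replicates 1 and 2; filled points were called different between the nucleases with the pair as a block, and the dashed line marks equal values. Most filled points lie above the dashed line, with Rpl27 below it in both media.

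Among the paralogues with restricted expression, Rpl39l set the KI replicates apart. Rpl39l, a paralogue of the exit tunnel protein Rpl39, had 204, 207 and 162 CPM in WT in LIF/2i with MNase, against 182, 43.5 and 49.5 CPM in KI. In LIF the values were 93.1, 97.4 and 100.4 CPM against 124, 20.7 and 13.3 CPM. Replicate 1 of KI lay near the WT libraries in both media, and Rpl39l was the only member in which it differed from replicates 2 and 3 by more than 1 on the log2 scale, in 1 direction, in both. With RNase I the KI libraries held 90.6 and 53.9 CPM, then 67.3 and 15.0 CPM without the inhibitors, again with replicate 1 higher. No genotype comparison of Rpl39l passed (with MNase -1.06, SE 0.68, in LIF/2i and -0.89, SE 0.69, in LIF).

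Rpl22 and Rps27l, a paralogue of Rps27 known as a p53 target, also had their highest KI value in replicate 1 in both media with MNase. In KI Rpl22 had 126, 60.9 and 65.3 CPM with the inhibitors and 160, 65.7 and 65.0 CPM without. Rps27l had 57.4, 45.1 and 34.2 CPM, and 47.9, 26.8 and 18.7 CPM. Rpl3l, a paralogue of Rpl3 best known from muscle, was low throughout, from 2.13 to 9.83 CPM over the 12 MNase libraries, and did not pass.

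Ribosomal proteins outside the naming pattern also differed in LIF/2i with MNase. Of the 5 described here 2 were higher and 1 was lower in KI. Rpl22l1, the paralogue of Rpl22, rose from 8.51, 9.68 and 4.67 to 19.5, 45.3 and 36.0 CPM (2.16, SE 0.43, adjusted p = 0.00388). Rps3a1 (0.42) was higher and Fau (-0.50) lower. In LIF 0 of the 5 were called by edgeR, with adjusted p of at least 0.206, and with RNase I 0 of 5 in either medium.

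Of the genes that build ribosomes, nearly all that passed were higher in KI with MNase. With MNase 17 of 24 small subunit assembly genes were higher in KI in LIF/2i and 16 in LIF, with 0 lower and medians of 0.60 and 0.62, where 13.9% and 7.49% of all genes were higher. Among 29 large subunit assembly genes 14 were higher and 1 lower in LIF/2i and 11 higher and 0 lower in LIF, against the same shares of all genes higher and 11.5% and 6.08% lower. Mphosph10 of the small subunit processome rose by 0.97 (SE 0.12, adjusted p = 5.62e-04) in LIF/2i and by 0.98 (SE 0.12, adjusted p = 0.00111) in LIF. Nmd3, the export adaptor of the large subunit, rose by 1.13 (SE 0.16) and 0.89 (SE 0.16). Of 12 tested genes of RNA polymerase I and rRNA transcription 7 were higher in LIF/2i (13.9% of all genes) and 2 in LIF (7.49%), with Rrn3 at 0.70 and 0.81.

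Of 24 other TOP mRNAs 11 were higher and 3 lower in KI in LIF/2i, against 13.9% and 11.5% of all genes. In LIF 2 were higher and 0 lower, a share near that of all genes (7.49% higher and 6.08% lower). Npm1, a nucleolar chaperone, gave 0.95 (SE 0.14, adjusted p = 9.36e-04) in LIF/2i, and in LIF 0.45 (SE 0.14), just short of the threshold. Of 18 genes of mTORC1 and of regulators of ribosomal protein mRNA, 7 were higher and 2 lower in LIF/2i (13.9% and 11.5% of all genes) and 2 higher and 3 lower in LIF (7.49% and 6.08%). Eif4ebp1, an inhibitor of initiation that mTORC1 phosphorylates, was lower in KI in LIF (-1.07, SE 0.22, adjusted p = 0.00846). Rragb was higher in KI in LIF/2i (3.80, SE 0.53) and in LIF (2.09, SE 0.44). Larp4 was also higher in both, at 1.29 (SE 0.20) and 0.69 (SE 0.19). With RNase I edgeR called 0 genes of these lists for KI against WT in either medium, and their medians lay between -0.06 and 0.37.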

How the data were processed

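Ribosome footprints were counted per gene by the authors, and the deposited values are raw counts with no normalization. The submitters' processing notes name cutadapt 3.4, Bowtie 1.3.0 and UMI-tools 1.0.1; the build and the treatment of multiple matches are not given in the sources used here. All 80 members matched RefSeq symbols, and 21755 of 22416 names were given their mouse spelling. Genes were filtered with filterByExpr, scaled by TMM and tested with edgeR 4.0.16 (quasi-likelihood, robust; limma 3.58.1, R 4.3.3) in 1 fit per nuclease over all its groups, and in a fit of replicates 1 and 2 of both nucleases. P-values were adjusted by Benjamini-Hochberg over all genes tested, with a threshold of 0.05. DESeq2 1.42.0, library totals, TMM without the members, no filter, thinning, a replicate block and removal of single libraries were the alternatives.

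The members, lists and rules were chosen with earlier results of these data known. Members were named as the largest changes and smallest adjusted p among those called, besides stalk, 5S, exit tunnel and decoding proteins, Rps6, Rpsa, Rps27a and restricted paralogues; for differences between the nucleases the blocked fit was used. The scripts were tested on simulated data. Levels per codon were not computed, so the shares of counts, sums over genes and bands of CPM were not adjusted for gene length. A few genes are not reported here. No pair of libraries agreed within sampling noise (chi-square per degree of freedom at least 2.78 with MNase, where KI replicate 1 stood apart, and 7.07 with RNase I). Across the nucleases the replicate numbers paired the libraries, as a finding in the data and not from the labels, with correlations of deviations from 0.486 to 0.711.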

Additional observations from a re-analysis of the deposited data

Results flagged for a closer look

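The response to removal of the inhibitors differed between KI and WT, by the test of the interaction with MNase, for Rplp0 (-2.06), Rpl37a (-1.53) and Rpl7 (-3.02), on the log2 scale. No member passed that test with RNase I. Groups held 2 or 3 libraries, so no test for a single outlying library was made.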

How the results depend on the processing

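Counts are of members called by edgeR, in the order KI against WT in LIF/2i, KI against WT in LIF, LIF against LIF/2i in WT, the same in KI, and the interaction. With all 20 libraries in 1 fit and the nuclease as a covariate, which averages each comparison over both nucleases, the counts were 11, 6, 4, 9 and 1. Without KI number 1 in both media the counts were 23 for KI against WT in LIF, 14 for the medium in WT and 10 for the interaction. DESeq2 gave 6 for the interaction, and thinning gave 14 for the medium in KI. Removal of 1 library gave 15 to 27, 8 to 17, 5 to 11, 15 to 26 and 1 to 5. The interaction count was 1 without WT LIF/2i replicate 3, WT LIF replicate 1 or 3, or KI LIF/2i replicate 2; it rose to 5 when KI LIF/2i lost replicate 1. With RNase I removal of 1 library gave 0 to 1, 0 to 0, 0 to 1, 0 to 4 and 0 to 0, the highest coming without KI LIF/2i replicate 1, KI LIF replicate 1 or 2, and KI LIF/2i replicate 2. For KI against WT in LIF with RNase I, DESeq2 gave 2 and no filter gave 1. RNase I against MNase gave 42 to 53. The differences between the nucleases gave 0 under every removal, and DESeq2 gave 1 in LIF/2i and 1 for the medium in KI.

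With the replicate block the differences between the nucleases were 22, 13, 0 and 10, and 42, 35, 6 and 19 when KI number 1 was left out too, an alternative added after seeing the data. Within MNase the block gave 23, 16, 9, 25 and 3, and within RNase I 0 in each, and moved no other count by over 1.5 times. Within a nuclease the same-numbered libraries did not deviate together in all group pairs, with correlations from -0.148 to 0.563 for MNase. Between the 2 media in KI, number 1 gave 0.563, against at most -0.431 with other numbers. Numbers 2 and 3 gave 0.315 and 0.393, against up to 0.367 and 0.404. For RNase I the KI value was 0.456, against -0.456. Calls given above for the medium in KI and for the interaction came from the fit without the block. The cause of the changes in counts was not tested. The largest of the named calls were followed through the alternatives, and none of those changed sign. Other values given above were not followed in this way. Thinning the MNase libraries to the smallest ended 3 calls of named genes, the changes of Rps18 and Rpl35 with the medium in KI and the Rpl7 interaction. The fit of all 20 libraries ended the calls of Rps13, Rpl9 and Rpl35 for KI against WT in LIF/2i. In LIF it ended those of Rps18, Rpl3 and Rpl27a. For the medium it ended those of Rpl7a, Rpl28 and Rpl27a in WT and of Rps18 and Rpl35 in KI. The interactions of Rpl7 and Rpl37a were lost in it as well. A group left with 1 RNase I library was assumed to vary like the others.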
